A study of Mus musculus with 6 samples.

Results

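The 10 K2P potassium channel genes described here were measured in pregnant mouse myometrium, the muscle wall of the uterus. They were Kcnk1, Kcnk2, Kcnk3, Kcnk4, Kcnk5, Kcnk6, Kcnk7, Kcnk10, Kcnk12 and Kcnk13, taken by symbol as 10 of the 55055 genes in the deposited tables. The set was selected on measured values: Kcnk2 had been called lower in knockout than in wild-type myometrium in these same libraries. The knockout and wild-type values of these genes are therefore a description: no p-value is printed for them, and the counts of genes called are given only to show what the choice rested on. RNA was sequenced from 3 animals in which Tcf23, a basic helix-loop-helix gene, had been knocked out with CRISPR/Cas9 (KO) and from 3 wild-type animals (WT), at E19.5 in the sample labels and day 19 of gestation in the series' design, 1 poly(A) library per animal. No source used here states the strain, the age of the dams or the exact deletion. Total counts were 39939686 to 65036402 in KO and 47345181 to 55236312 in WT libraries. Tcf23 itself had 0, 2 and 1 counts in KO libraries 1, 2 and 3, against 4203, 5970 and 3360 in WT libraries 1, 2 and 3, in keeping with the genotype on each label.

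K2P channels are built from subunits with tandem pore domains, pair as dimers and carry the background, or leak, potassium current that holds a resting cell at a negative voltage. Kcnk2 encodes TREK-1, which opens with membrane stretch, polyunsaturated fatty acids and intracellular acid and is closed by protein kinase A, protein kinase C and receptors that act through Gq. In human myometrium TREK-1 is known as a stretch-activated channel that keeps the muscle quiet while the uterus grows. Kcnk4 (TRAAK) and Kcnk10 (TREK-2) are its closest relatives. Kcnk3 (TASK-1) is closed by extracellular acid, Kcnk5 (TASK-2) is opened by alkaline medium, and Kcnk1 (TWIK-1) and Kcnk6 (TWIK-2) carry weak inwardly rectifying currents. Kcnk13 (THIK-1) is a halothane-inhibited channel. Kcnk7 and Kcnk12 give no or little current when expressed alone.

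Kcnk2 has an upstream start and a cluster of downstream starts, and counts per gene do not separate transcripts from the different starts. In GENCODE M21 (GRCm38, the same assembly as the mm10 build of the files), 2 of its 6 coding transcripts begin at the upstream start and 4 at the downstream cluster 58.0 kb further along. The sequences before an upstream and a downstream RefSeq start of Kcnk2 and before the start of Kcnk4 are printed here. Kcnk4 is the family member with the largest difference in the opposite direction. The sequences are shown because Tcf23 belongs to the basic helix-loop-helix class, many of whose dimers bind the E-box CANNTG. Whether Tcf23 itself binds this motif was not tested. The RefSeq upstream start is base 189402273, while the upstream coding transcripts of GENCODE M21 begin at 189402218 and 189402213. Each sequence is the 250 bases before the start from RefSeq on GRCm38.p6, minus strand. Matches to CANNTG, which reads the same on both strands, are in capitals.

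Kcnk2 upstream start, chr1:189402274-189402523: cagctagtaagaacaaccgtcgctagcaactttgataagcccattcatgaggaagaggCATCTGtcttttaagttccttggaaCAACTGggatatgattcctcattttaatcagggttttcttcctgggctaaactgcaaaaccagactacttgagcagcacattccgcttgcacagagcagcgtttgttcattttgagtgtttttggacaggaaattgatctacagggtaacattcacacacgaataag
Kcnk2 first downstream start, chr1:189344193-189344442: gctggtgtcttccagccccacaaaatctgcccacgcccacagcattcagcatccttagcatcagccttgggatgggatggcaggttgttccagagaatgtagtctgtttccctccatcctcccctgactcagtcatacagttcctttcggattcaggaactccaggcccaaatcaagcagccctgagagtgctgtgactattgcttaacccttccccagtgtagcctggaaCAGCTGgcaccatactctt
Kcnk4 start, chr19:6934516-6934765: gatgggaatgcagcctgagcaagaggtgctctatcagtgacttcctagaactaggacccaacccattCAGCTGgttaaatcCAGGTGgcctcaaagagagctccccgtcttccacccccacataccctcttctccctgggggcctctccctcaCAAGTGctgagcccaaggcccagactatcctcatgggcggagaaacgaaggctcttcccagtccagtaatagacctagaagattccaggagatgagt

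The upstream Kcnk2 window held 2 matches, CATCTG 192 and CAACTG 167 bases before the start. The downstream window held 1 match, CAGCTG 19 bases before the start. The Kcnk4 window held 3, at 183, 169 and 97 bases before the start. RefSeq lists 2 further Kcnk2 windows, not printed, within the span of transcripts from the first downstream start: 1 held CAGCTG 231 bases before its start and the other held 0 matches. Kcnk13, also higher in each KO library, had 1 match, CAGGTG 72 bases before its start. Among members whose groups overlapped, Kcnk1 had 2 matches, Kcnk5 and Kcnk12 had 1 each, and Kcnk7 and Kcnk10 had 0. Of 32851 RefSeq promoter windows of the same length, 66.2% held at least 1 CANNTG, 31.8% at least 2 and 12.2% at least 3, and 13.0% held CAGCTG. Windows were found for 8 of the 10 genes, and a match describes letters only.

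Kcnk2 (ENSMUSG00000037624, mm10 chromosome 1, 189207930 to 189402218, minus strand) was low in every KO library. It had 472, 408 and 273 counts in KO libraries 1, 2 and 3, against 1423, 1421 and 1323 in WT libraries 1, 2 and 3. In CPM (counts scaled per library to a common size, after TMM scaling) this is 7.33, 7.35 and 6.65 in KO, against 30.5, 27.4 and 23.6 in WT. The groups did not overlap, and the KO libraries lay closer together than the WT libraries. Means were 7.11 ± 0.397 CPM in KO and 27.15 ± 3.45 CPM in WT (SD, n = 3 each), a KO level of 26.2% of WT. The fitted log2 change was −1.93 ± 0.15 (standard error). Against the WT library of the same number, the KO level was 24.1%, 26.9% and 28.2% for numbers 1, 2 and 3. In whole tissue, fewer cells of a type and less RNA per cell cannot be told apart.

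In the edgeR fit over all 19599 genes that passed the count filter, 1 of the 8 K2P genes tested, Kcnk2, passed an adjusted p under 0.05 as lower and 0 passed as higher. Over all genes tested 0.0204% passed as lower and 0% as higher. Since Kcnk2 was chosen for this call, nothing is read from the count. Without KO library 1, KO library 2, WT library 1 or WT library 2 the count of K2P genes called lower was 0, while the log2 change of Kcnk2 stayed between −2.03 and −1.84 whichever library was left out.

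Genes that overlap Kcnk2 by position had summed counts of 130.5% of its own in KO and 35.9% in WT, and nearly all of these came from 1 intronic pseudogene. Pdcd5-ps, a processed pseudogene on the same strand, lies 18151 bases from the nearest Kcnk2 exon and shares no exonic base with it. It had 11.2, 7.35 and 8.68 CPM in KO libraries 1, 2 and 3, against 10.8, 9.30 and 7.77 CPM in WT libraries 1, 2 and 3, overlapping between genotypes (log2 −0.03 ± 0.21, edgeR adjusted p = 0.993). As a near copy of part of Pdcd5, its counts may hold reads of that gene. The other 3 overlapping genes together had 1.47% of the Kcnk2 counts in KO and 1.82% in WT. With the counts of all but Pdcd5-ps added to Kcnk2, the log2 ratio of the group means was −1.94, against −1.93 without them. With Pdcd5-ps added too it was −1.18.

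A430027H14Rik, an antisense RNA gene on the plus strand, overlaps the downstream start cluster of Kcnk2 (chromosome 1, 189343431 to 189344897) and was low in the same libraries. It had 6, 6 and 3 counts in KO libraries 1, 2 and 3, against 25, 15 and 24 in WT libraries 1, 2 and 3. The groups did not overlap, at log2 −2.14 ± 0.40, without passing in edgeR (adjusted p = 0.215, and from 0.178 to 0.776 with 1 library left out). DESeq2 gave an adjusted p of 0.0434. Its exons share 604 bases with Kcnk2 exons, 12.2% of the exonic length of Kcnk2. No source used here says whether counting used strand, so antisense reads and reads of Kcnk2 itself cannot be told apart there. The remaining overlapping genes were near 0. 2900042K21Rik, on the same strand and 254 bases from the nearest Kcnk2 exon, had 1, 1 and 0 counts in KO libraries 1, 2 and 3, against 6, 1 and 5 in WT libraries 1, 2 and 3. Gm24092, annotated as a miRNA, had 0 counts in each of the 6 libraries.

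**Figure D1:**
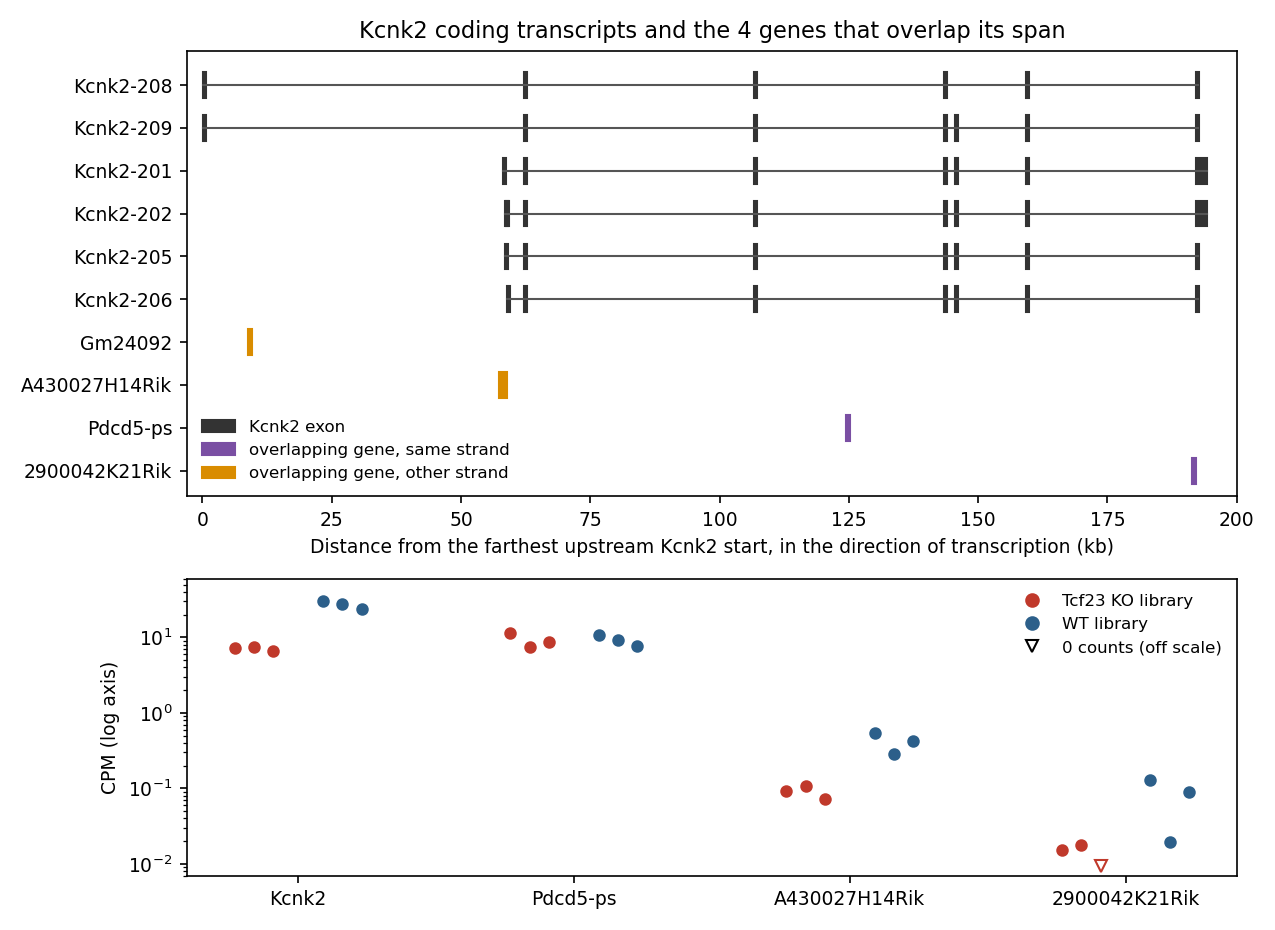
The upper panel maps the 6 coding transcripts of Kcnk2 and the 4 genes overlapping its span by distance from the farthest upstream start in kb, with narrow boxes widened to be visible. The lower panel plots CPM on a log axis for each KO (red) and WT (blue) library: Kcnk2 and A430027H14Rik are lower in each of the 3 KO libraries than in each of the 3 WT libraries, and Pdcd5-ps overlaps.

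Expressed genes on either side of Kcnk2 did not differ past the threshold. Kctd3, 200.1 kb away on the downstream side, had 40.5, 40.8 and 40.9 CPM in KO libraries 1, 2 and 3, against 42.1, 43.8 and 43.9 CPM in WT libraries 1, 2 and 3. Its log2 change was −0.09 ± 0.11 (edgeR adjusted p = 0.912), although the groups did not overlap. Cenpf, 238.4 kb away on the upstream side, had a log2 change of −0.15 ± 0.29 and Ptpn14, 326.0 kb away, 0.02 ± 0.29, with edgeR adjusted p = 0.955 and 0.997. Gm38155, the next gene beyond Kctd3 with a mean of at least 1 CPM, had a log2 change of −0.45 ± 0.41 (edgeR adjusted p = 0.875).

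The level of Kcnk2 was also set against the smooth muscle content of each library. Summed CPM of 18 smooth muscle markers were 48982, 55187 and 22788 in KO libraries 1, 2 and 3, against 46254, 45504 and 38405 in WT libraries 1, 2 and 3. KO library 3 was therefore the poorest in muscle RNA and KO library 2 the richest, while their Kcnk2 levels were 6.65 and 7.35 CPM. For each 1000 CPM of these markers, Kcnk2 had 0.150, 0.133 and 0.292 CPM in KO libraries 1, 2 and 3, against 0.659, 0.601 and 0.614 CPM in WT libraries 1, 2 and 3. The groups did not overlap, and the log2 ratio of the means was −1.71. Without KO library 3 that ratio was −2.14.

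Markers of mesothelium, the covering of the uterus, were partly low in the same libraries. Of the 8 listed genes, 1 had a positive and 7 a negative log2 change, with a median of −2.98. Before adjustment 6 passed as lower in edgeR, where 3.29% of all genes did, with 0 called after it and 1, Msln, called by DESeq2, where 0.677% were. Summed CPM of the 8 genes overlapped, at 212.6 to 901.1 in KO and 402.2 to 787.7 in WT. Krt19 is in this list and in the uterine epithelium list, so these sums need not be of mesothelial RNA alone. Msln had 28.1, 13.98 and 17.6 CPM in KO libraries 1, 2 and 3, against 73.3, 41.7 and 64.0 CPM in WT libraries 1, 2 and 3. Upk3b had 2.38, 3.48 and 5.73 CPM in KO libraries 1, 2 and 3, against 59.8, 21.4 and 2.94 CPM in WT libraries 1, 2 and 3. WT library 3 lay within the KO range for Upk3b and above it for Msln. Of the 8 mesothelium genes, 1, Msln, was lower in each KO library than in each WT library, where 7.01% of all genes tested were. In the fibroblast list 2 of 10 genes were, and in the list of interstitial (Cajal-like) cells 1 of 5. The part of mesothelial RNA in the Kcnk2 values was not tested.

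Kcnk4, the TRAAK channel gene and a relative of Kcnk2, was higher in each KO library than in each WT library. It had 100, 168 and 145 counts in KO libraries 1, 2 and 3, against 44, 59 and 47 in WT libraries 1, 2 and 3. This is 1.55, 3.03 and 3.53 CPM in KO and 0.943, 1.14 and 0.838 CPM in WT. KO library 1 lay much nearer to the WT libraries than the other 2 KO libraries did. Means were 2.70 ± 1.03 CPM in KO and 0.972 ± 0.151 CPM in WT (SD, n = 3 each), with a log2 change of 1.47 ± 0.35. DESeq2 called it higher (1 of the 8 genes, against 1.24% of all genes it tested), and edgeR did not. No annotated gene overlaps it. Summed CPM of 14 nerve and Schwann cell markers, of interest because TRAAK is known from neurons, were 76.5, 151.1 and 87.6 in KO libraries 1, 2 and 3, against 106.0, 106.0 and 104.1 in WT libraries 1, 2 and 3, with 10 of the 14 under 1 CPM in every library.

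With Kcnk2 low and Kcnk4 high, the makeup of the TREK group differed between genotypes. Per exonic length, in TPM (counts over exonic length, scaled to the same sum in each library), Kcnk4 made up 19.0%, 31.3% and 37.0% of the summed TPM of Kcnk2, Kcnk4 and Kcnk10 in KO libraries 1, 2 and 3, against 3.31%, 4.39% and 3.78% in WT libraries 1, 2 and 3. The sum itself was 5.10, 7.10 and 6.61 TPM in KO, against 19.3, 18.0 and 15.7 TPM in WT, so the higher Kcnk4 did not bring the sum to the WT range. Kcnk10, the third of the group, was barely detected. It had 2, 0 and 1 counts in KO libraries 1, 2 and 3, against 0, 0 and 5 in WT libraries 1, 2 and 3. A count of 0 allows up to 0.0541 CPM in KO library 2 and up to 0.0643 and 0.0578 CPM in WT libraries 1 and 2, for counting error only.

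The acid- and alkali-sensitive members Kcnk3 and Kcnk5 were highest in KO library 1. Kcnk5 had 109.2, 57.9 and 42.3 CPM in KO libraries 1, 2 and 3, against 53.8, 58.2 and 56.1 CPM in WT libraries 1, 2 and 3. The WT libraries were close together and the KO libraries lay on both sides of them. The KO mean was 69.8 ± 35.0 CPM against a WT mean of 56.0 ± 2.17 CPM (SD, n = 3 each), and 50.1 CPM without KO library 1. The log2 change was 0.32 ± 0.32, and −0.16 without KO library 1. Kcnk3 had 3.53, 1.51 and 0.634 CPM in KO libraries 1, 2 and 3, against 0.943, 0.693 and 0.624 CPM in WT libraries 1, 2 and 3. KO libraries 1 and 2 lay above the WT range and KO library 3 within it, so the groups overlapped. Its log2 change was 1.34 ± 0.58, and 0.53 without KO library 1. Kcnk3 lies 343.4 kb from Tcf23 on chromosome 5.

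Summed markers of placenta and fetal membrane were also highest in KO library 1, without all listed genes being so. Summed CPM of the 19 listed genes were 381.9, 72.7 and 19.8 in KO libraries 1, 2 and 3, against 76.7, 81.3 and 75.8 in WT libraries 1, 2 and 3, with 1 of the 19 at 0 and 7 under 1 CPM in every library. Tpbpa, a trophoblast gene, made up 243.5 of the 381.9 CPM. Psg21, Psg23 and Prl3b1 had 3.15, 3.63 and 2.19 CPM in KO library 1, against 7.47, 8.40 and 4.29 CPM in WT library 2, where they were highest. Of the 13 listed genes tested, 6 had positive and 7 negative log2 changes (median −0.27). Summed CPM of 8 erythroid markers also set KO library 1 apart, at 282.3, 75.3 and 102.7 in KO libraries 1, 2 and 3, against 51.1, 83.9 and 106.5 in WT libraries 1, 2 and 3. The part of placental, membrane or blood RNA in the Kcnk5 and Kcnk3 values was not tested.

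Kcnk1 was the most abundant K2P gene and varied between libraries in both genotypes. It had 155.4, 118.6 and 209.5 CPM in KO libraries 1, 2 and 3, against 118.6, 91.5 and 153.7 CPM in WT libraries 1, 2 and 3. Library 3 was highest and library 2 lowest within each genotype, and the groups overlapped. The log2 change was 0.41 ± 0.26. Against the WT library of the same number, the KO level was 131.0%, 129.6% and 136.3% for numbers 1, 2 and 3. Summed CPM of 12 uterine epithelium markers had the same order within each genotype, at 3759, 2294 and 6105 in KO libraries 1, 2 and 3, against 3425, 2225 and 5037 in WT libraries 1, 2 and 3. For each 1000 CPM of these markers, Kcnk1 had 41.3, 51.7 and 34.3 CPM in KO libraries 1, 2 and 3, against 34.6, 41.1 and 30.5 CPM in WT libraries 1, 2 and 3. The part of epithelial RNA in the Kcnk1 values was not tested. An antisense gene that overlaps Kcnk1, Gm45875, had 44 counts in KO and 49 in WT.

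**Figure D2:**
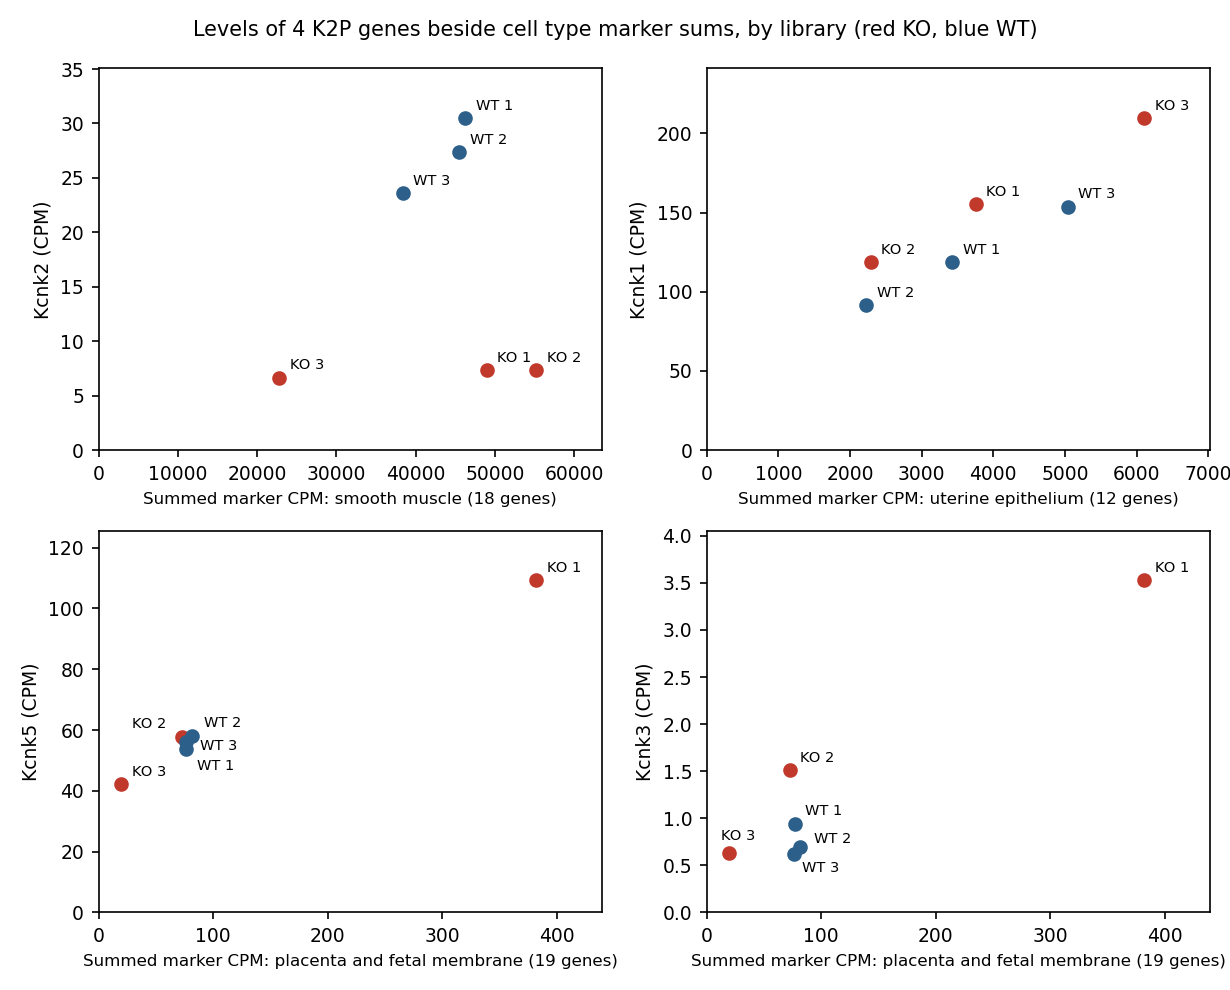
Each panel plots the CPM of 1 K2P gene against the summed CPM of a marker list, with 1 point per library, KO in red and WT in blue. Kcnk2 is lower in the 3 KO libraries, whose smooth muscle sums lie on both sides of the WT sums, Kcnk1 follows the order of the epithelial sums within each genotype, and Kcnk5 and Kcnk3 are highest in KO library 1, which has the highest placental and membrane sum of 381.9 CPM.

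Kcnk6 and Kcnk13 were expressed at moderate and low levels. Kcnk6 had 16.9, 16.7 and 22.6 CPM in KO libraries 1, 2 and 3, against 15.3, 17.8 and 19.1 CPM in WT libraries 1, 2 and 3, and the groups overlapped (log2 0.10 ± 0.17). Kcnk13 had 3.74, 3.23 and 3.88 CPM in KO libraries 1, 2 and 3, against 2.21, 2.95 and 2.89 CPM in WT libraries 1, 2 and 3. These groups did not overlap, with means of 3.61 ± 0.344 CPM in KO and 2.68 ± 0.412 CPM in WT (SD, n = 3 each) and a log2 change of 0.43 ± 0.21. Kcnk13 is known as the background potassium channel of microglia, so leukocyte markers are given beside it. Their summed CPM overlapped, at 529.3 to 633.0 in KO and 452.3 to 654.4 in WT. Of the 16 markers tested, however, 14 had positive log2 changes (median 0.70). Of the same 16, 9 were higher in each KO library than in each WT library, where 7.22% of all genes tested were. DESeq2 called 3 higher (Csf3r, S100a8 and S100a9, genes of neutrophils), against 1.24% of all genes it tested. edgeR called 0 higher. Adgre1, a macrophage marker, had 63.9, 64.3 and 74.8 CPM in KO libraries 1, 2 and 3, against 54.9, 80.2 and 58.7 CPM in WT libraries 1, 2 and 3, overlapping. The part of leukocyte RNA in the Kcnk13 and Kcnk4 values was not tested. Of the 8 K2P genes tested, 2 (Kcnk4 and Kcnk13) had non-overlapping groups as higher and 1 (Kcnk2) as lower, where 7.22% and 7.01% of all genes tested did.

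The silent members were near the limit of detection. Kcnk7 had 22, 26 and 12 counts in KO libraries 1, 2 and 3, against 9, 16 and 32 in WT libraries 1, 2 and 3, and just passed the count filter (log2 0.04 ± 0.45). Kcnk12 had 6, 4 and 6 counts in KO libraries 1, 2 and 3, against 5, 2 and 5 in WT libraries 1, 2 and 3, and did not pass it. Both overlapped between genotypes. The other 4 K2P genes of the table, Kcnk9, Kcnk15, Kcnk16 and Kcnk18, had at most 4 counts in any library.

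Compared per exonic length, Kcnk2 lay below Kcnk6 in KO myometrium, at 4.39 ± 0.424 TPM for Kcnk2 and 13.8 ± 2.78 TPM for Kcnk6 (SD, n = 3), and above it in WT. The full order in WT myometrium was Kcnk1 at 168.4 TPM, Kcnk5 at 51.0, Kcnk2 at 16.98, Kcnk6 at 13.03, Kcnk13 at 2.67, Kcnk7 at 0.712, Kcnk4 at 0.674, Kcnk3 at 0.585, Kcnk12 at 0.123 and Kcnk10 at 0.011. Ranges over the 3 WT libraries overlapped between Kcnk7 and Kcnk4 and between Kcnk4 and Kcnk3, so these neighbours have no clear order. The range of Kcnk2, 15.1 to 18.7 TPM, did not overlap that of Kcnk6, 11.2 to 14.6 TPM. Kcnk2 made up 1.35%, 1.91% and 1.17% of the summed TPM of the 10 genes in KO libraries 1, 2 and 3, against 7.70%, 7.97% and 4.95% in WT libraries 1, 2 and 3. Kcnk1 and Kcnk5 together made up 89.8% to 92.5% in KO and 83.6% to 88.5% in WT.

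**Figure D3:**
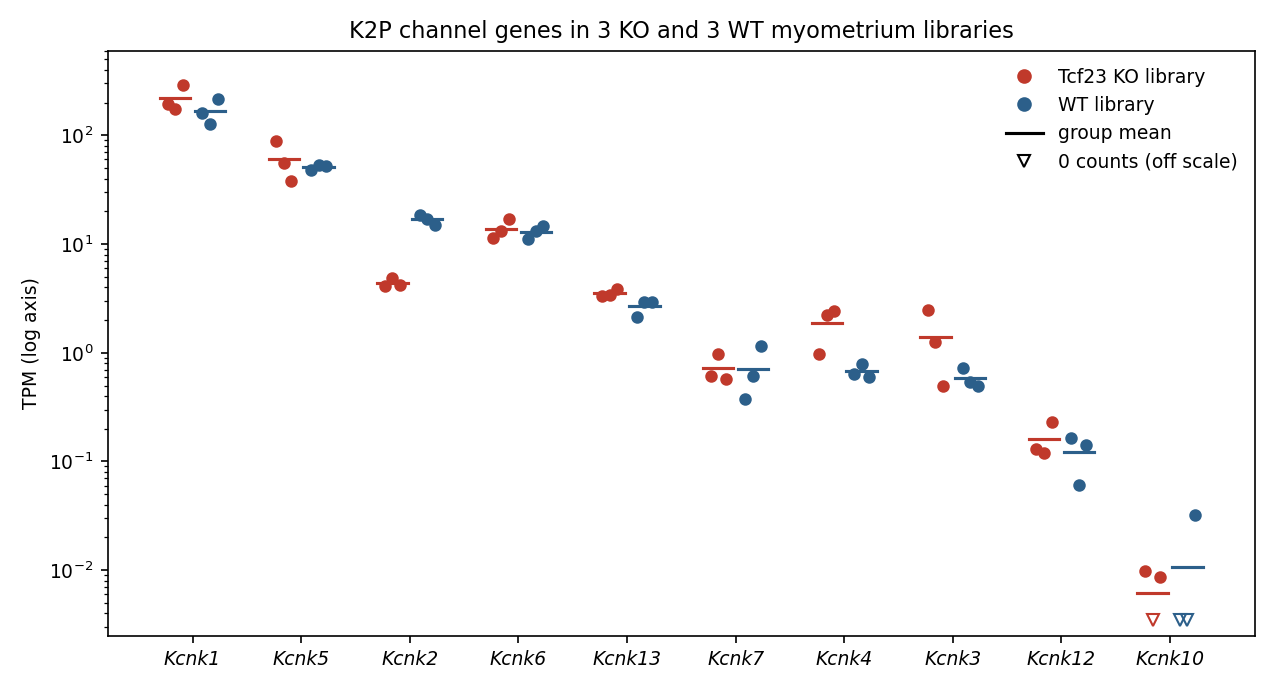
TPM of the 10 K2P genes on a log axis, ordered by WT mean, with 1 point per library, KO (red) left of WT (blue), bars at the group means and triangles for libraries with 0 counts. Kcnk2 is lower and Kcnk4 higher in each KO library than in each WT library, while Kcnk1 and Kcnk5 overlap.

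Over 6 libraries and among 15053 genes with a mean of at least 1 CPM, the highest Pearson r with Kcnk2 on log2 CPM was that of Alb (serum albumin, r = 0.997), then Tcf23 (0.993), Ptgdr2 (a prostaglandin D2 receptor, 0.988), Grpr (gastrin-releasing peptide receptor, 0.988) and Ctps2 (a CTP synthase, 0.987). These r are a description: the 6 points fall into the 2 genotypes, and all 5 genes were low in KO. Ctps2 differed least, at 44.0, 42.1 and 41.9 CPM in KO libraries 1, 2 and 3, against 60.4, 55.9 and 53.7 CPM in WT libraries 1, 2 and 3 (log2 −0.41 ± 0.11, edgeR adjusted p = 0.343).

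Other potassium channel genes went both ways and did not pass in edgeR. Of 78 listed genes, 77 were in the table and 51 were tested, 34 with positive and 17 with negative log2 changes (median 0.27, against 0.01 over all genes tested). Without KO library 2 this median was 0.08. None of the 51 passed the edgeR threshold (0 higher, 0 lower). Before adjustment (edgeR p under 0.05), 6 passed as higher and 1 as lower, where 5.27% and 3.29% of all genes did. DESeq2 called 3 higher and 1 lower, against 1.24% and 0.677% of all genes it tested. Kcne2, an accessory subunit of voltage-gated potassium channels, had 59.2, 63.7 and 57.4 CPM in KO libraries 1, 2 and 3, against 23.5, 24.8 and 42.1 CPM in WT libraries 1, 2 and 3 (log2 1.00 ± 0.23, edgeR adjusted p = 0.292). Kcne4, another such subunit, had 131.1, 86.8 and 56.3 CPM in KO libraries 1, 2 and 3, against 185.0, 210.5 and 198.7 CPM in WT libraries 1, 2 and 3 (log2 −1.12 ± 0.29, edgeR adjusted p = 0.325).

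Kcng1, a silent voltage-gated subunit, and Kcnj10, an inward rectifier, were low in WT. Kcng1 had 8.45, 11.3 and 1.83 CPM in KO libraries 1, 2 and 3, against 1.37, 1.29 and 0.963 CPM in WT libraries 1, 2 and 3, with KO library 3 close to the WT range (log2 2.58 ± 0.61, edgeR adjusted p = 0.295). Without KO library 3 it passed, at log2 3.03 and an edgeR adjusted p of 0.0424, and over the 6 fits that leave out 1 library the adjusted p went up to 0.785. Kcnj10 had 0.823, 2.14 and 1.73 CPM in KO libraries 1, 2 and 3, against 0.536, 0.462 and 0.606 CPM in WT libraries 1, 2 and 3 (log2 1.54 ± 0.39, edgeR adjusted p = 0.322). In Kcne2, Kcne4, Kcng1 and Kcnj10, named for the smallest edgeR p of the list, the groups did not overlap. These were the genes that DESeq2 called, 3 higher and 1 lower. Their DESeq2 adjusted p were 0.0136, 0.0176, 0.000316 and 0.0272 in that order. Of the 51 listed genes tested, 6 had non-overlapping groups as higher and 1 as lower, where 7.22% and 7.01% of all genes tested did.

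Genes whose products bind, move or gate TREK channels did not pass in edgeR or DESeq2. Of 17 partner and trafficking genes, all tested, 11 were positive and 6 negative (median 0.06, and 0.01 to 0.08 with 1 library left out). With 0 called by edgeR or DESeq2, 1 was higher and 0 were lower before adjustment, where 5.27% and 3.29% of all genes were, a share near that of all genes. That gene was Akap5, an anchor for protein kinase A, at 0.435, 0.721 and 0.414 CPM in KO libraries 1, 2 and 3, against 0.300, 0.270 and 0.285 CPM in WT libraries 1, 2 and 3 (edgeR adjusted p = 0.531). Sptbn4 (a spectrin), Nedd4l (a ubiquitin ligase) and Map2 (a microtubule protein) followed, with log2 changes of 0.61, 0.49 and 0.55 and edgeR adjusted p of 0.633, 0.699 and 0.718. Of the 17 genes, 2 had non-overlapping groups as higher and 0 as lower, where 7.22% and 7.01% of all genes tested did.

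Of 26 genes for signals that open or close TREK channels, 16 were positive and 10 negative (median 0.04, and −0.14 without KO library 2). With 0 called by edgeR or DESeq2, 2 were higher and 0 lower before adjustment, near the 5.27% and 3.29% of all genes. These were Pla2g6, a phospholipase that frees fatty acids, at 24.5 ± 2.91 CPM in KO and 19.0 ± 0.922 CPM in WT (SD, n = 3 each; edgeR adjusted p = 0.509), and Plcb2, a phospholipase C (edgeR adjusted p = 0.554). Prkar1a, a regulatory subunit of protein kinase A, had 388.2, 376.6 and 295.5 CPM in KO libraries 1, 2 and 3, against 497.2, 480.3 and 413.5 CPM in WT libraries 1, 2 and 3 (edgeR adjusted p = 0.585). Pip5k1a, which makes the lipid PIP2, had a log2 change of −0.25 ± 0.11 (edgeR adjusted p = 0.604). Of the 26 genes, 1 had non-overlapping groups as higher and 2 as lower, where 7.22% and 7.01% of all genes tested did.

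Of 15 tested genes for other stretch-activated or leak channels, 6 were positive and 9 negative (median −0.07, and −0.23 to 0.09 with 1 library left out). With 0 called by edgeR or DESeq2, 1 was higher and 0 were lower before adjustment, near the 5.27% and 3.29% of all genes. That gene was Unc79, part of the sodium leak channel complex, at 0.590, 0.685 and 0.682 CPM in KO libraries 1, 2 and 3, against 0.278, 0.520 and 0.160 CPM in WT libraries 1, 2 and 3 (edgeR adjusted p = 0.578). Tmem63b, an osmosensitive cation channel, had a log2 change of 0.26, Pkd2 (polycystin-2) −0.39 and Trpm7, a cation channel with a kinase domain, −0.31, with edgeR adjusted p of 0.639, 0.773 and 0.787. Of the 15 genes, 3 had non-overlapping groups as higher and 0 as lower, where 7.22% and 7.01% of all genes tested did.

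**Figure D4:**
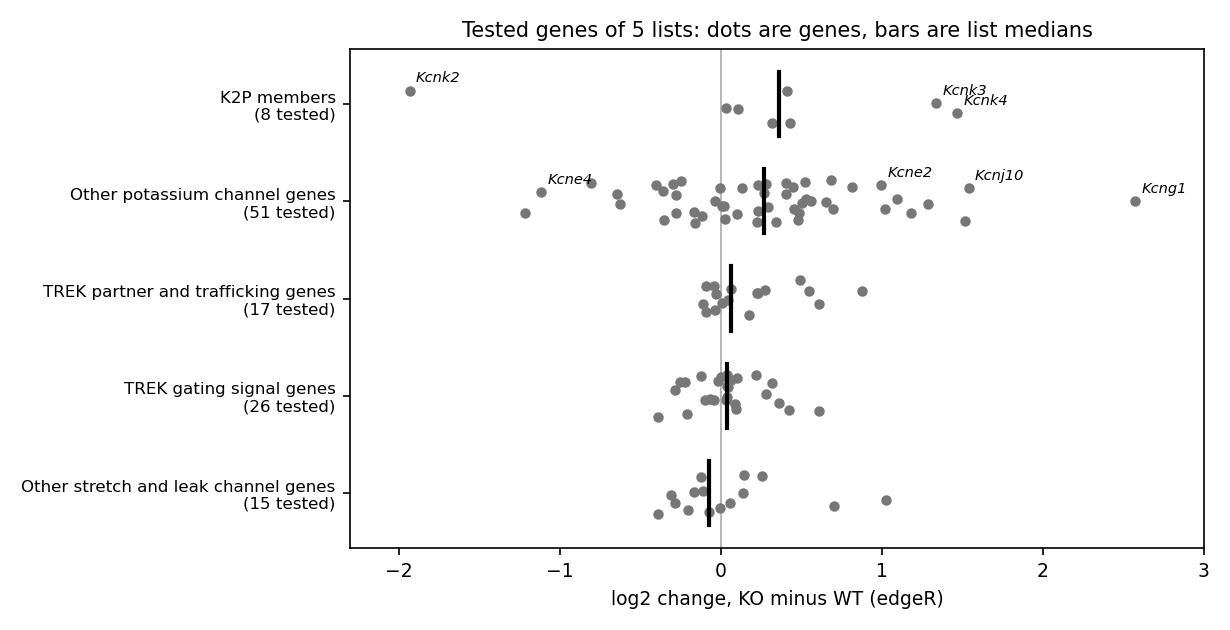
Log2 changes (KO minus WT) of the tested genes of 5 lists, 1 dot per gene with random vertical spread, and black bars at the list medians. Kcnk2, for whose lower level in KO the K2P set was chosen, has the lowest value among all genes plotted, at −1.93. Kcng1, at 2.58, has the highest.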

How the data were processed

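The K2P genes and the gene lists were chosen with earlier results of these data known. Raw counts of each library were deposited by Ensembl gene. The authors also deposited a normalized signal, which in every library is the count multiplied by a constant (0.804 to 1.26). Per the submitters' processing notes, which give no role or order, the tools included HTSeq 0.9.1, HISAT2 2.2.1, DESeq2 2.11.40.7 and FastQC 0.73, with the build mm10. The annotation release and strand setting are not given in any source used. Of 133 genes lying wholly inside exons of a gene on the other strand with over 1000 counts, 95 had 0 counts, against 33 of 40 such genes inside exons on the same strand.

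Counts were fitted in R 4.3.3 with edgeR 4.0.16 (filterByExpr, TMM, quasi-likelihood test, Benjamini-Hochberg adjusted p under 0.05 over 19599 genes), with DESeq2 1.42.0 and limma 3.58.1 as alternatives. The edgeR, DESeq2 and limma-voom fits were checked on simulated data. TPM used exonic lengths of GENCODE M21, which held 54804 of 55055 identifiers. Positions come from the deposited table, counted from 1.

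The text names the 10 K2P genes, other Kcnk genes, genes overlapping or next to Kcnk2, the 5 most like it, Tcf23, and from each list up to 4 genes with the smallest p. Marker genes beside a result (Msln, Upk3b, Adgre1, Csf3r, S100a8, S100a9, Tpbpa, Psg21, Psg23 and Prl3b1) were picked after their values were seen. Each library is a separate animal per the series' design; litters are not described. Limits for 0 counts cover counting error only. Standard errors of log2 changes are the size of the change over the square root of the F statistic of the edgeR test. They include variation between libraries. Counts of replicates were no repeats of each other (chi-square over its degrees of freedom, 35.4 to 232.6). Same-numbered libraries of the 2 genotypes deviated together (r across genes 0.147, 0.196 and 0.217, other pairs −0.223 to 0.061), so the replicate number was used as a block in an alternative fit; the labels do not say what links them.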

Additional observations from a re-analysis of the deposited data

How the results depend on the processing

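The log2 change of Kcnk2 stayed between −2.03 and −1.84 under every scaling, filter, tool, block and left-out library that was run. It moved to −1.18 with the counts of every overlapping gene added and to −1.17 with those on the same strand, both of which hold Pdcd5-ps. Pdcd5-ps shares no exonic base with Kcnk2 and its groups overlapped, so adding its counts had to make the change smaller. With all but Pdcd5-ps added the log2 ratio was −1.94. Adding these counts was chosen after seeing the data. Overlapping genes had 56.4% of the Kcnk2 counts over all libraries, and 54.9% counting the same strand alone. The log2 ratio of Kcnk2 to smooth muscle markers was −1.76 without the 5 most abundant markers and ran from −2.14 to −1.50 with 1 library left out. edgeR's count of genes called lower, 4, was 135 in DESeq2, 34 without a count filter and 8 with upper-quartile scaling, and 1 to 4 with 1 library left out. Its count of genes called higher, 0, was 247 in DESeq2, 47 without a count filter, 4 with upper-quartile scaling and 2 with the replicate block, and 0 to 3 with 1 library left out. The cause was not tested. With the replicate block 1 K2P gene was again called lower, 5 genes in all were called lower, and the block moved no named gene across the threshold among those with a block p (list genes, overlapping genes, neighbours and the 5 most like Kcnk2). K2P genes called lower were 0 to 1 with 1 library left out, and 1 K2P gene, Kcnk4, was called higher in DESeq2. Other potassium channel genes called were 1 lower and 3 higher in DESeq2, and 0 to 1 higher with 1 library left out. The other 152 values, log2 changes of the other K2P genes and list medians, each moved by less than 1 SD of the libraries. However, 2 list medians changed sign with 1 library left out: −0.14 without KO library 2 for gating signals, and up to 0.09 (without KO library 1) for stretch and leak channels. The log2 changes of Kcnk5, Kcnk6 and Kcnk7 changed sign too. They were −0.16 without KO library 1 for Kcnk5, −0.05 without KO library 3 for Kcnk6, and down to −0.25 (without WT library 1) for Kcnk7. Kcnk7, Kcnk10 and Kcnk12 are limited by depth.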
